A study of Arabidopsis thaliana with 24 samples.

Results

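The 10 genes described here encode the monomeric light-harvesting proteins of photosystem II, the LHCB3 subunit of its trimers, and the antenna of photosystem I in Arabidopsis thaliana. They are LHCB3 (AT5G54270), LHCB4.1 (AT5G01530), LHCB4.2 (AT3G08940), LHCB4.3 (AT2G40100), LHCB5 (AT4G10340), LHCB6 (AT1G15820), LHCA1 (AT3G54890), LHCA2 (AT3G61470), LHCA3 (AT1G61520) and LHCA4 (AT3G47470), chosen by their gene identifiers from 33602 genes in the count table, and all 10 passed the filter on low counts that left 10097 genes for testing. The set was chosen with earlier results of these data known, which limits how its counts can be read beside all genes. RNA was sequenced from whole seedlings of IP-Svi-0, a natural accession described in the labels as early flowering, and of Col-0, the reference accession. Each accession was grown at 10, 16, 23 or 27 °C on MS medium, with 3 libraries in each of the 8 groups. Seedlings were taken 23 days after transfer to 10 °C, 12 days after transfer to 16 °C, 8 days after transfer to 23 °C and 7 days after transfer to 27 °C. Temperature and age therefore cannot be told apart. The labels do not say whether the 3 libraries of a group came from separate cultures, so p-values measure the spread between these libraries, which may be technical.

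Light-harvesting proteins bind chlorophyll a, chlorophyll b and carotenoids in the thylakoid membrane and pass excitation energy to the reaction centres. In photosystem II the minor antennae CP29 (LHCB4), CP26 (LHCB5) and CP24 (LHCB6) sit as monomers between the core and the trimers of the major antenna LHCII, and LHCB3 is a subunit of the trimer that docks through CP24 and CP29. In photosystem I, LHCA1 with LHCA4 and LHCA2 with LHCA3 form a belt of dimers on one side of the core. CP29 has 3 genes in Arabidopsis, and LHCB4.3 is known as the divergent one, whose transcript is linked to strong light and stress.

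Of the 3 CP29 genes, LHCB4.3 differed in pattern from LHCB4.1 and LHCB4.2 in these data, and the sequence before each of the 3 is shown first. The 250 bases upstream of the annotated start are printed on the gene's own strand, from RefSeq on TAIR10.1, with matches to 4 fixed motifs in capitals. The window of LHCB4.1 was chr5:208616-208865 (plus strand), that of LHCB4.2 chr3:2717307-2717556 (plus strand), and that of LHCB4.3 chr2:16745378-16745627 (plus strand). The window of LHCA1, the gene with the largest difference between 10 and 23 °C in IP-Svi-0 among the 10, was chr3:20341177-20341426 (minus strand).
LHCB4.1: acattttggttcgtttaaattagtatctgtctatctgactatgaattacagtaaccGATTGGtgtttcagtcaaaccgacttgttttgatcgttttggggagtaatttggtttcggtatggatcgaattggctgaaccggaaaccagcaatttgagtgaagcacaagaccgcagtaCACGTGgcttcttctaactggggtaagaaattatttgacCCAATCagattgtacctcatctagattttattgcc
LHCB4.2: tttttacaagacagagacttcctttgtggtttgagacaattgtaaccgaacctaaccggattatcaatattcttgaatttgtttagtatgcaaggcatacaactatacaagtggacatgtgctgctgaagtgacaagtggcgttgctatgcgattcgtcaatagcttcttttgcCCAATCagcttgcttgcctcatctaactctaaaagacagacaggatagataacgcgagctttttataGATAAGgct
LHCB4.3: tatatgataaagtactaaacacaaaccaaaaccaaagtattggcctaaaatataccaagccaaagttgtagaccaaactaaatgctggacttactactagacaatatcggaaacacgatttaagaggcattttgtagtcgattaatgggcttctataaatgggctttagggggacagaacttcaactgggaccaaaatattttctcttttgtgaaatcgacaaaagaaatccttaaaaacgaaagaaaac
LHCA1: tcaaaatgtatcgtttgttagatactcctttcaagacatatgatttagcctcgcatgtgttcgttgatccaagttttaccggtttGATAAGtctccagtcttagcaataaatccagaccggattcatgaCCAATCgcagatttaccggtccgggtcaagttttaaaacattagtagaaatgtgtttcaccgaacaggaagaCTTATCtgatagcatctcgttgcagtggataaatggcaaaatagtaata

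Both strands were searched, and no 2 matches overlapped. The G-box was searched as CACGTG. The I-box was searched as GATAAG. Another motif was the run of letters CCAATC alone. The core of the evening element was searched as AATATCT. LHCB4.1 held a G-box beginning 74 bases before the start and CCAATC at 194 and 35 bases. LHCB4.2 held CCAATC at 76 bases and an I-box at 9 bases. LHCB4.3 held none of the 4 motifs. LHCA1 held an I-box at 165 and 49 bases and CCAATC at 121 bases. Over the 10 genes, 3 held a G-box, 3 an I-box, 5 CCAATC and 0 the evening element core. Among 27443 windows of the same length, 6.49% held the G-box, 12.3% the I-box, 10.2% CCAATC and 10% the evening element core. LHCB3, LHCB5 and LHCA2 also held none of the 4. A match describes these letters in the reference genome and is not a measured binding site.

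The coding sequences of LHCB4.1 and LHCB4.2 were 81.9% identical, against 71.8% for LHCB4.1 with LHCB4.3 and 73% for LHCB4.2 with LHCB4.3. LHCB4.3 had the shortest coding sequence of these 3 genes, 831 bp against 873 bp in LHCB4.1 and 864 bp in LHCB4.2. The longest identical stretch between any 2 of the 10 genes was 23 bp, between LHCB4.1 and LHCB4.2. LHCB3 shared up to 37 bp with CAB1, a gene of the major antenna. The genes lie on chromosomes 1 to 5: LHCB6 at chr1:5446462-5447880, LHCA3 at chr1:22699715-22701412, LHCB4.3 at chr2:16745628-16747424, LHCB4.2 at chr3:2717557-2718923, LHCA4 at chr3:17493343-17495033, LHCA1 at chr3:20339504-20341176, LHCA2 at chr3:22745514-22747444, LHCB5 at chr4:6408007-6409849, LHCB4.1 at chr5:208866-210548 and LHCB3 at chr5:22038165-22039568.

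Libraries held 338784 to 870567 counts at genes, 1.41 to 3.61% of their reads, while 59.6 to 89.8% of reads aligned where no gene was counted, and 751 to 14000 of these counts were at the 10 antenna genes. The kit was strand-specific, but the sources used here do not give the strand used in counting. Whether the counts of a gene come mainly from its own strand or mainly from the opposite one was not tested, and every level and ratio given here has this limit. Of the 10 genes, 6 have no exon overlap with a gene on the other strand, while LHCB3 shares 186 bp with AT5G54280, LHCB4.2 44 bp with AT3G08943, LHCB6 246 bp with AT1G05207 and AT1G15810, and LHCA4 53 bp with AT3G47460. Reads aligned to more than 1 place made up 22.9 to 35.8% of the Col-0 libraries at 16 °C and 2.67 to 26.5% of the others, where Col-0 10 °C replicate 2 was the highest. Reads of both accessions were aligned to the Col-0 genome, and 1.35 to 1.98% of IP-Svi-0 reads, against 0.364 to 0.533% of Col-0 reads, did not align.

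Antenna counts were highest at 10 °C in both accessions. On CPM, counts divided by the scaled library size, the 10 genes summed to 13566, 16931 and 12621 in IP-Svi-0 at 10 °C. In IP-Svi-0 they averaged 14373 ± 2265 at 10 °C, 4291 ± 526 at 16 °C, 3082 ± 520.5 at 23 °C and 3333 ± 94.5 at 27 °C (SD, n = 3 each). In Col-0 they averaged 7948 ± 801 at 10 °C, 3357 ± 689 at 16 °C, 3828 ± 125 at 23 °C and 3661 ± 204 at 27 °C (SD, n = 3 each). Every library at 10 °C lay above every library at 16, 23 and 27 °C, and the 3 IP-Svi-0 libraries at 10 °C lay above the 3 Col-0 libraries at 10 °C. As a share of all counts at genes, the sum was 1.42 ± 0.28% in IP-Svi-0, against 0.651 ± 0.144% in Col-0 at 10 °C. In bulk RNA, fewer cells of a type and less RNA per cell cannot be told apart.

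**Figure D1:**
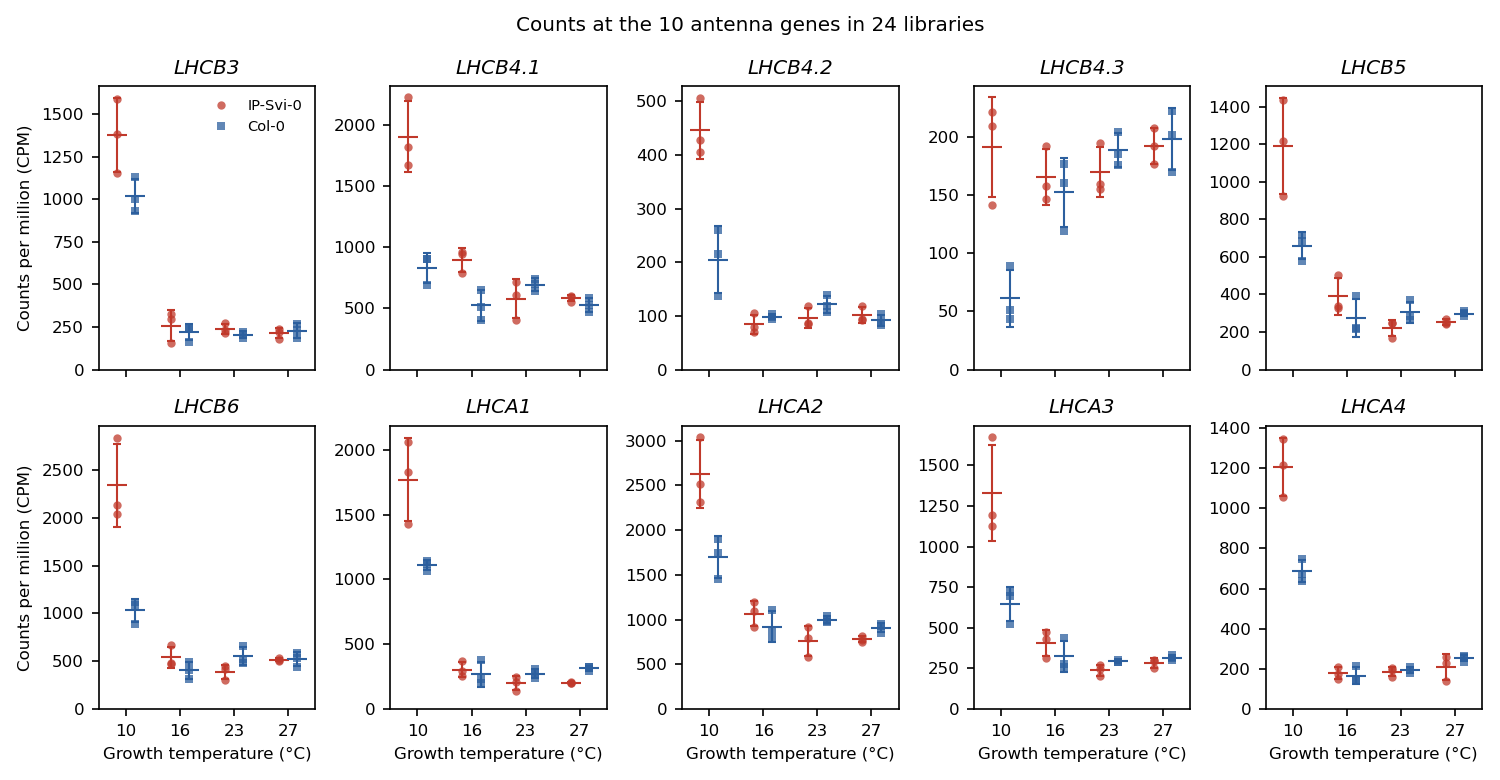
CPM (vertical axis, from 0) of each antenna gene against growth temperature in °C, with 1 point per library (IP-Svi-0 circles, Col-0 squares) and the mean with its SD (n = 3). In 9 of the 10 genes the highest group is IP-Svi-0 at 10 °C, while LHCB4.3 lies between 43.6 and 88.8 CPM in Col-0 at 10 °C and at 119 CPM or more in every other library.

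In IP-Svi-0 seedlings at 10 °C, 9 of the 10 antenna genes rose against 23 °C and 0 fell, where 5.77% of all genes tested rose, 9.98% fell and 15.8% changed in either direction (edgeR quasi-likelihood test, Benjamini-Hochberg adjusted p under 0.05 over 10097 genes). The 9 increases lay between 3.3-fold for LHCB4.1 and 8.87-fold for LHCA1. Their groups did not overlap, as in 15.6% of all genes tested with the higher values at 10 °C. In Col-0, 6 of the 10 genes rose and 1 fell, where 3.83% of all genes rose, 2.85% fell and 6.69% changed in either direction. The groups did not overlap for 7 genes that were higher at 10 °C and for LHCB4.3, which was lower, against 11.9% and 12.6% of all genes. The median log2 ratio (the fitted difference of log2 levels) of the 10 genes was 2.46 in IP-Svi-0, beside -0.02 over all genes tested, and 1.004 in Col-0, beside -0.01.

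LHCB3, a subunit of LHCII trimers beside LHCB1 and LHCB2, rose in both accessions. It had 1385, 1588 and 1155 CPM in IP-Svi-0 at 10 °C, against 212, 231 and 273 CPM at 23 °C. In Col-0 it had 931, 1001 and 1128 CPM at 10 °C, against 184, 222 and 207 CPM at 23 °C. Both groups at 10 °C stood clear of both groups at 23 °C. LHCB3 rose 5.76-fold in IP-Svi-0 (log2 ratio 2.53, SE 0.28, adjusted p = 2.02e-08) and 4.99-fold in Col-0 (2.32, SE 0.27, adjusted p = 1.75e-07). Its response to 10 °C differed between the accessions by 0.21 on the log2 scale (SE 0.37, adjusted p = 0.797), with the smallest difference of the 10 genes.

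The CP29 genes LHCB4.1 and LHCB4.2 rose at 10 °C in IP-Svi-0, and neither passed the test in Col-0. LHCB4.1 had 1813, 2224 and 1669 CPM in IP-Svi-0 at 10 °C, against 405, 607 and 719 CPM at 23 °C. In Col-0 it had 902, 686 and 902 CPM at 10 °C, against 742, 698 and 642 CPM at 23 °C. The IP-Svi-0 groups were separate and the Col-0 groups overlapped. LHCB4.1 rose 3.3-fold in IP-Svi-0 (log2 ratio 1.72, SE 0.26, adjusted p = 1.25e-05), while in Col-0 the log2 ratio was 0.26 (SE 0.26, adjusted p = 0.623). LHCB4.2, at a lower level than LHCB4.1, had 428, 507 and 406 CPM in IP-Svi-0 at 10 °C, against 85.0, 118 and 86.5 CPM at 23 °C. In Col-0 it had 216, 137 and 260.5 CPM at 10 °C, against 118, 108 and 139.5 CPM at 23 °C. Only Col-0 10 °C replicate 2, with 137 CPM, fell within the range of the Col-0 libraries at 23 °C. LHCB4.2 rose 4.62-fold in IP-Svi-0 (2.21, SE 0.25, adjusted p = 6.56e-08). In Col-0 its log2 ratio was 0.78 (SE 0.25, adjusted p = 0.0516), and it passed without Col-0 10 °C replicate 2 (0.96, adjusted p = 0.0277), with DESeq2 (adjusted p = 0.0319) and with either covariate (0.00758 for counts without an overlap and 0.0278 for multiple alignment).

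LHCB4.3, the divergent CP29 gene, fell at 10 °C in Col-0 and did not pass the test in IP-Svi-0. It had 142, 221 and 209.6 CPM in IP-Svi-0 at 10 °C, against 195, 155 and 159.7 CPM at 23 °C. In Col-0 it had 43.6, 88.8 and 51.2 CPM at 10 °C, against 204, 176 and 185 CPM at 23 °C. The Col-0 groups were separate, with the lower values at 10 °C, and the IP-Svi-0 groups overlapped. In Col-0 it fell to 0.308 of its level at 23 °C (log2 ratio -1.70, SE 0.28, adjusted p = 7.44e-05), and in IP-Svi-0 the log2 ratio was 0.17 (SE 0.25, adjusted p = 0.716). The Col-0 value at 10 °C rests on 70 counts, with 26, 22 and 22 in the 3 libraries, and the IP-Svi-0 value on 136, 183 and 108. Leaving out 1 library at a time gave -2.01 to -1.47 in Col-0.

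LHCB5 (CP26), which sits across the core from CP24, rose in both accessions. It had 1215, 1433 and 922 CPM in IP-Svi-0 at 10 °C, against 170.0, 246 and 246 CPM at 23 °C, and in Col-0 714, 577 and 686 CPM at 10 °C, against 266, 369.6 and 283 CPM at 23 °C. Neither pair of groups overlapped. The increase was 5.39-fold in IP-Svi-0 (log2 ratio 2.43, SE 0.28, adjusted p = 5.5e-08) and 2.16-fold in Col-0 (1.11, SE 0.27, adjusted p = 0.00657). The Col-0 call was lost without Col-0 23 °C replicate 1 (1.02, adjusted p = 0.057).

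LHCB6 (CP24) rose in both accessions. It had 2038, 2838 and 2139 CPM in IP-Svi-0 at 10 °C, against 309, 446 and 419 CPM at 23 °C. In Col-0 it had 1118, 892 and 1084 CPM at 10 °C, against 659.6, 521 and 478 CPM at 23 °C. Neither pair of groups overlapped. The increase was 5.97-fold in IP-Svi-0 (log2 ratio 2.58, SE 0.27, adjusted p = 1.06e-08) and 1.87-fold in Col-0 (0.90, SE 0.26, adjusted p = 0.0259). The Col-0 call was lost without Col-0 10 °C replicate 1 (adjusted p = 0.0618) or replicate 3 (0.115), and without Col-0 23 °C replicate 2 (0.111) or replicate 3 (0.112). It was also lost with no filter on low counts (0.087) and with the share of reads aligned to more than 1 place as a covariate (0.0531).

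Of the photosystem I antenna genes, LHCA1 and LHCA4, whose proteins form a dimer, had the largest differences at 10 °C in IP-Svi-0. LHCA1 had 1825, 2058 and 1425 CPM in IP-Svi-0 at 10 °C, against 143, 207 and 248 CPM at 23 °C. In Col-0 it had 1117, 1066 and 1144 CPM at 10 °C, against 241, 270.2 and 309 CPM at 23 °C. The libraries at 10 °C stood clear of those at 23 °C in both accessions. LHCA1 rose 8.87-fold in IP-Svi-0 (log2 ratio 3.15, SE 0.28, adjusted p = 3.4e-10) and 4.06-fold in Col-0 (2.02, SE 0.27, adjusted p = 1.49e-06). LHCA4, which carries the red-shifted chlorophylls of the antenna, had 1216, 1345 and 1054 CPM in IP-Svi-0 at 10 °C, against 192, 204 and 159.7 CPM at 23 °C. In Col-0 it had 674, 638 and 747 CPM at 10 °C, against 196, 209.7 and 177 CPM at 23 °C. Again no groups overlapped. LHCA4 rose 6.49-fold in IP-Svi-0 (2.70, SE 0.26, adjusted p = 3.13e-09) and 3.53-fold in Col-0 (1.82, SE 0.26, adjusted p = 4.64e-06).

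LHCA2 and LHCA3, the partners of the other dimer, had smaller differences. LHCA2 had 2309.8, 3045 and 2517 CPM in IP-Svi-0 at 10 °C, against 582, 799 and 912 CPM at 23 °C. In Col-0 it had 1749, 1449.7 and 1902 CPM at 10 °C, against 1042, 969 and 985 CPM at 23 °C. The groups did not overlap in either accession. LHCA2 rose 3.43-fold in IP-Svi-0 (log2 ratio 1.78, SE 0.26, adjusted p = 6.17e-06). In Col-0 its log2 ratio was 0.77 (SE 0.25, adjusted p = 0.0593), and it passed with DESeq2 (adjusted p = 0.00388) and with the covariate of counts without an overlap (0.00374). LHCA3 had 1195, 1671 and 1126 CPM in IP-Svi-0 at 10 °C, against 204, 244 and 268 CPM at 23 °C, and in Col-0 694, 525 and 719 CPM at 10 °C, against 291, 301 and 289 CPM at 23 °C. It stood clear in both accessions, and rose 5.58-fold in IP-Svi-0 (2.48, SE 0.27, adjusted p = 1.51e-08) and 2.2-fold in Col-0 (1.14, SE 0.26, adjusted p = 0.00336).

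**Figure D2:**
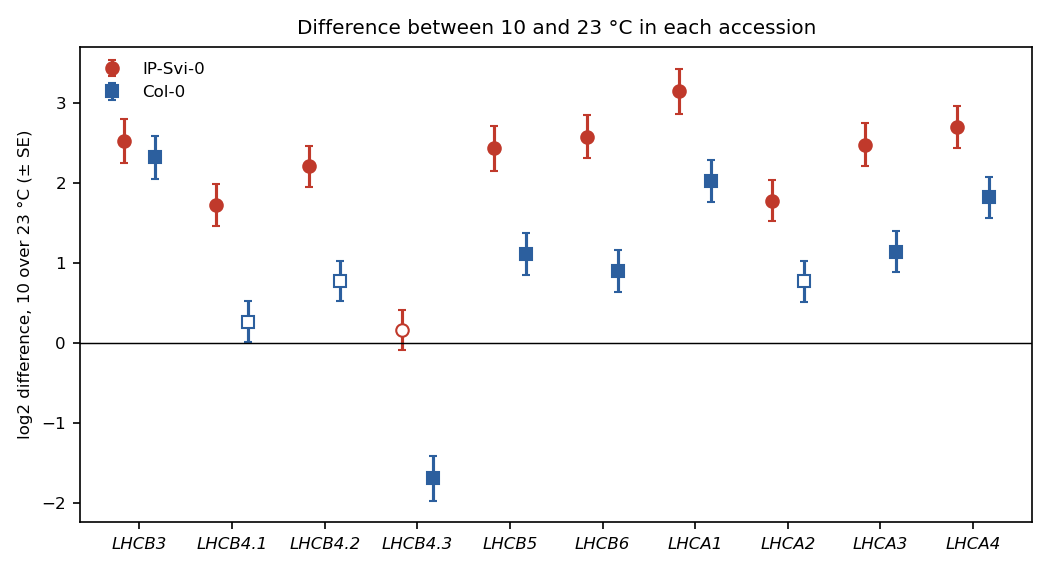
Log2 ratio between 10 and 23 °C (vertical axis) with its SE for each antenna gene, IP-Svi-0 as circles on the left and Col-0 as squares on the right of each pair; filled symbols have an adjusted p under 0.05. All 10 values are higher in IP-Svi-0, with the narrowest gap at LHCB3 (2.53 and 2.32), and LHCB4.3 in Col-0 is the only value below 0 (-1.70).

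The difference of responses to 10 °C, IP-Svi-0 minus Col-0, was positive and past the threshold for 6 of the 10 genes and negative and past it for 0. Among all genes tested it was positive and past the threshold in 1.43%, negative and past it in 4.02%, and past it in either direction in 5.45%. It was 1.86 on the log2 scale for LHCB4.3 (SE 0.37, adjusted p = 0.00673), 1.68 for LHCB6 (SE 0.37, adjusted p = 0.00901), 1.46 for LHCB4.1 (SE 0.36, adjusted p = 0.0204), 1.43 for LHCB4.2 (SE 0.35, adjusted p = 0.0189), 1.34 for LHCA3 (SE 0.36, adjusted p = 0.0295) and 1.32 for LHCB5 (SE 0.38, adjusted p = 0.0369). For LHCB4.3 the difference goes with the fall in Col-0 (-1.70), since its log2 ratio in IP-Svi-0 was 0.17 and was not called. The values for LHCA1 (1.13, adjusted p = 0.0616), LHCA2 (1.01, adjusted p = 0.0802), LHCA4 (0.88, adjusted p = 0.129) and LHCB3 did not pass. LHCB4.3 and LHCB6 kept an adjusted p under 0.05 in all 18 alternatives, with highest values of 0.0298 and 0.047. The count of 6 became 2 without Col-0 10 °C replicate 2 or IP-Svi-0 10 °C replicate 2, and 3 without Col-0 23 °C replicate 1, Col-0 23 °C replicate 2 or IP-Svi-0 23 °C replicate 1. Tested over all 4 temperatures together, as 3 contrasts with 23 °C, the difference of responses passed for LHCB4.3 (adjusted p = 0.0136) and LHCB6 (adjusted p = 0.0379), 2 of 10 genes, against 1.43% of all genes by edgeR. DESeq2 called 9 of 10, and it also called more of all genes than edgeR did, as given in the last section. That count of 2 ranged from 0 (without Col-0 10 °C replicate 3 or IP-Svi-0 10 °C replicate 2) to 7 (without Col-0 16 °C replicate 1), was 5 with IP-Svi-0 10 °C replicate 3 left out, was 4 with IP-Svi-0 27 °C replicate 3 left out, and was 1 without Col-0 10 °C replicate 2, Col-0 23 °C replicate 1 or 2, Col-0 27 °C replicate 1 or 2, IP-Svi-0 10 °C replicate 1, IP-Svi-0 27 °C replicate 1 or 2, or any IP-Svi-0 library at 23 °C.

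At 10 °C, 7 of the 10 antenna genes were higher in IP-Svi-0 than in Col-0 and 0 were lower, where 9.59% of all genes were higher and 14.4% lower, 24% in either direction. The 10 genes were higher in each IP-Svi-0 library than in each Col-0 library, as were 20.1% of all genes. LHCB4.3 differed most, 3.27-fold, with 191 ± 42.9 CPM in IP-Svi-0, against 61.2 ± 24.2 CPM for Col-0 libraries (SD, n = 3 each; log2 ratio 1.71, SE 0.28, adjusted p = 1.53e-05). LHCB4.1 was 2.29-fold higher (1.19, SE 0.26, adjusted p = 0.00076), LHCB6 2.26-fold (1.18, SE 0.26, adjusted p = 0.000837), LHCB4.2 2.15-fold (1.11, SE 0.24, adjusted p = 0.000797) and LHCA3 2.05-fold (1.04, SE 0.25, adjusted p = 0.00233). LHCB5 was 1.8-fold higher (0.85, adjusted p = 0.0155) and LHCA4 1.75-fold (0.81, adjusted p = 0.0138). These last 2 calls were lost without Col-0 10 °C replicate 2 (adjusted p = 0.0721 and 0.0567), as they were when IP-Svi-0 10 °C replicate 2 was left out (0.098 and 0.0666). LHCA1 (0.67, adjusted p = 0.0505), LHCA2 (0.63, adjusted p = 0.0652) and LHCB3 (0.43, adjusted p = 0.226) did not pass, and LHCA1 passed without IP-Svi-0 10 °C replicate 3 (adjusted p = 0.0269). DESeq2 called LHCA1 (adjusted p = 0.0186) and LHCA2 (0.0112). This comparison and those of 10 with 23 °C share the libraries at 10 °C.

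The accessions were not called different at the other temperatures. At 16 °C 0 of 10 genes were called by edgeR, where it called 8.22% of all genes. The shares of all genes by unadjusted p and by DESeq2 are not given here for this comparison. Of the 10 genes, 1 had an unadjusted p under 0.05 and DESeq2 called 1. That 1 gene was LHCB4.1, with 956, 785 and 947 CPM in IP-Svi-0, against 653, 514 and 402 CPM in Col-0 (log2 ratio 0.77, SE 0.26, adjusted p = 0.0589). Its groups did not overlap, as in 10.8% of all genes with the higher values in IP-Svi-0, and it passed without Col-0 16 °C replicate 1 (0.98, adjusted p = 0.0277). At 23 °C 0 of 10 were called by edgeR or DESeq2 and 0 had an unadjusted p under 0.05, where edgeR called 7.93% of all genes. The log2 ratios lay between -0.50 for LHCB6 and 0.23 for LHCB3, with 9 of the 10 below 0. LHCB5, LHCB6, LHCA2 and LHCA3 were lower in each IP-Svi-0 library than in each Col-0 library at 23 °C, against 13.8% of all genes.

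At 27 °C 0 of 10 genes were called between the accessions by edgeR or DESeq2, where edgeR called 8.04% of all genes. The share of all genes by unadjusted p is not given here for this comparison. Of the 10 genes, 1 had an unadjusted p under 0.05. That gene was LHCA1, with 203, 203 and 206 CPM in IP-Svi-0, against 294, 325 and 326 CPM in Col-0 (log2 ratio -0.63, SE 0.26, adjusted p = 0.166), and it passed with the covariate of counts without an overlap (-0.66, adjusted p = 0.0304). LHCA1, LHCA2, LHCA3 and LHCB5 did not overlap at 27 °C, with the lower values in IP-Svi-0, against 14.2% of all genes. Averaged over the 4 temperatures, 2 of 10 genes were higher in IP-Svi-0 and 0 lower, LHCB4.1 (0.46, SE 0.13, adjusted p = 0.00553) and LHCB4.3 (0.41, SE 0.13, adjusted p = 0.0134). Of all genes 16.0% were higher in this average, 16.7% were lower and 32.7% differed in either direction. At 10, 16, 23 and 27 °C the log2 ratios were 1.71, 0.13, -0.15 and -0.045 for LHCB4.3. They were 1.19, 0.77, -0.27 and 0.14 for LHCB4.1. For both genes only the value at 10 °C was called.

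**Figure D3:**
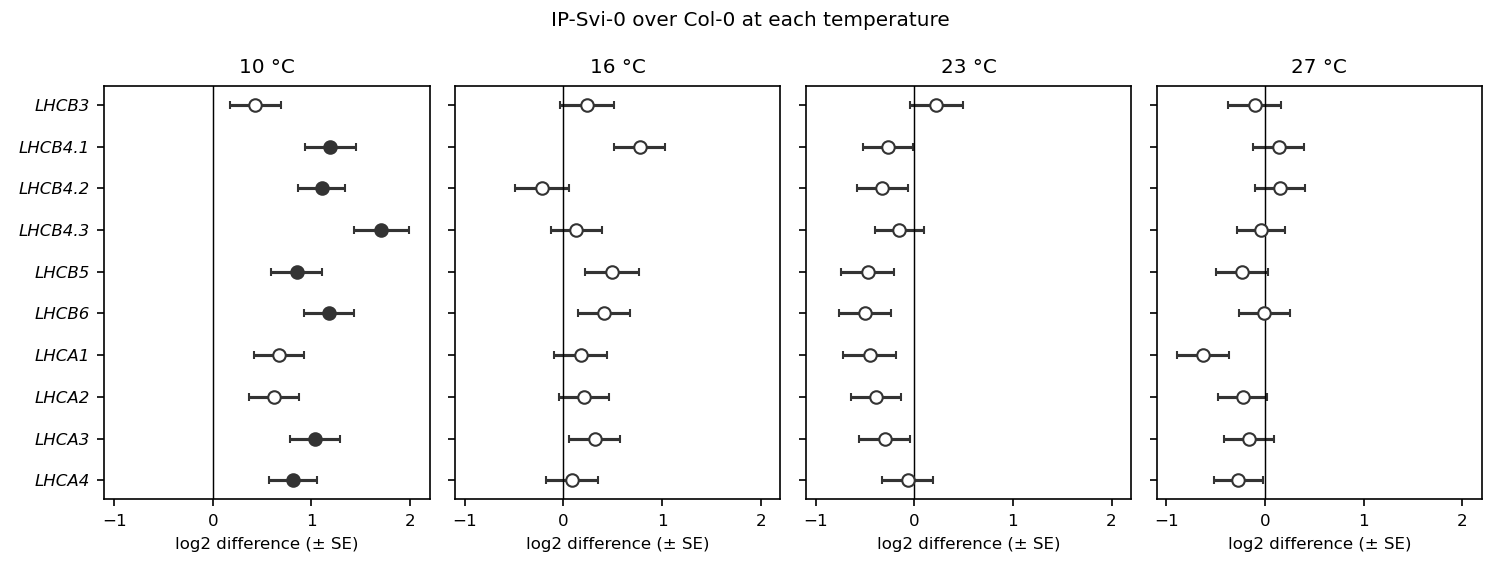
Log2 ratio of IP-Svi-0 over Col-0 (horizontal axis) with its SE for each antenna gene, 1 panel per temperature; filled points have an adjusted p under 0.05. At 10 °C all 10 points lie above 0 (0.43 to 1.71) and 7 are filled, and at 16, 23 and 27 °C none is filled.

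The antenna genes were not called at 16 or 27 °C against 23 °C in either accession. In IP-Svi-0 at 16 °C 0 of 10 were called by edgeR, where it called 0.792% of all genes. Of the 10, 4 had an unadjusted p under 0.05 and DESeq2 called 2, LHCB5 and LHCA3. The shares of all genes by unadjusted p and by DESeq2 are not given here for this comparison. LHCB5 had 329.8, 337 and 505 CPM at 16 °C (log2 ratio 0.82, SE 0.27, adjusted p = 0.126) and LHCA3 431, 316 and 472 CPM (0.77, SE 0.26, adjusted p = 0.134). With LHCB4.1, LHCB6, LHCA1 and LHCA2 they were the 6 genes whose IP-Svi-0 libraries at 16 °C all lay above those at 23 °C, against 7.93% of all genes. In Col-0 at 16 °C 0 of 10 were called by edgeR or DESeq2 and 0 had an unadjusted p under 0.05, where edgeR called 1.23% of all genes, and the log2 ratios lay between -0.45 and 0.15.

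At 27 against 23 °C edgeR called 0 of 10 genes in each accession, 0 had an unadjusted p under 0.05 and DESeq2 called 0. In IP-Svi-0 edgeR called 0% of all genes, 681 genes had an unadjusted p under 0.05 and DESeq2 called 12. In Col-0 edgeR called 0.109% of all genes. The antenna log2 ratios lay between -0.18 and 0.40 in IP-Svi-0 and between -0.40 and 0.38 in Col-0.

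The 8 groups were also ordered by mean CPM for each gene. For 7 of the 10 genes, LHCB3, LHCB5, LHCB6 and the 4 LHCA genes, the order was IP-Svi-0 at 10 °C, then Col-0 at 10 °C, then the other groups, and each of these 2 groups stood clear of the next in the order. LHCB4.2 had the same first 2 groups, but its Col-0 libraries at 10 °C overlapped the next group. For LHCB4.1 IP-Svi-0 at 10 °C (1902 ± 288 CPM) stood clear, and next came IP-Svi-0 at 16 °C (896 ± 96.4 CPM) and Col-0 at 10 °C (830.3 ± 125 CPM), whose ranges overlapped. For LHCB4.3 the order ran from Col-0 at 27 °C (198 ± 26.5 CPM) to Col-0 at 16 °C (152 ± 29.5 CPM) with every neighbouring pair overlapping, and Col-0 at 10 °C stood clear below them.

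Compared between genes, per kb of exon, the levels at 10 °C in IP-Svi-0 ran from 1942 ± 362 CPM per kb for LHCB6 and 1864 ± 269 for LHCA2 to 327 ± 38.9 for LHCB4.2 and 132 ± 29.6 for LHCB4.3 (SD, n = 3 each). In Col-0 at 10 °C LHCA2 was at 1208 ± 163 CPM per kb, LHCA1 at 871 ± 31.1 and LHCB6 at 857 ± 101, while LHCB4.3 was at 42.3 ± 16.7. LHCB4.1 was the most abundant CP29 gene at 10 °C, with 1363 ± 206 CPM per kb in IP-Svi-0, against 595 ± 89.2 in Col-0.

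The make-up of the antenna counts also differed between temperatures. The share of LHCA1 in the counts of the 10 genes was 12.3 ± 1.09% in IP-Svi-0, against 14.0 ± 0.956% in Col-0 at 10 °C, and 6.40 ± 0.692% in IP-Svi-0, against 7.16 ± 1.13% in Col-0 at 23 °C. The ratio of LHCA1 to LHCA2 counts was 0.677 ± 0.112 at 10 °C and 0.259 ± 0.0132 at 23 °C in IP-Svi-0, and 0.658 ± 0.0691 at 10 °C and 0.275 ± 0.0415 at 23 °C in Col-0. At 10 °C the accessions overlapped in this ratio, while the levels of both genes were higher in each IP-Svi-0 library. The ratio of LHCB3 to LHCB6 separated the accessions at 10 °C, with 0.54 to 0.68 in IP-Svi-0, against 0.832 to 1.12 in Col-0. At 23 °C it separated them in the other direction, with 0.519 to 0.688 in IP-Svi-0, against 0.279 to 0.433 in Col-0. At 16 and 27 °C the accessions overlapped in this ratio. The ratio of the 4 LHCA to the 6 LHCB genes was 0.932 ± 0.0102 in IP-Svi-0, against 1.09 ± 0.00936 in Col-0 at 10 °C, and 0.819 ± 0.0144 in IP-Svi-0, against 0.853 ± 0.0501 in Col-0 at 23 °C. It was 0.842 ± 0.0826 in IP-Svi-0, against 0.999 ± 0.0667 in Col-0 at 16 °C. At 27 °C it was 0.793 ± 0.0351 in IP-Svi-0, against 0.965 ± 0.041 in Col-0. The accessions did not overlap in it at 10 and 27 °C, and overlapped at 16 and 23 °C. These ratios are descriptions over 3 libraries each and were not tested.

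**Figure D4:**
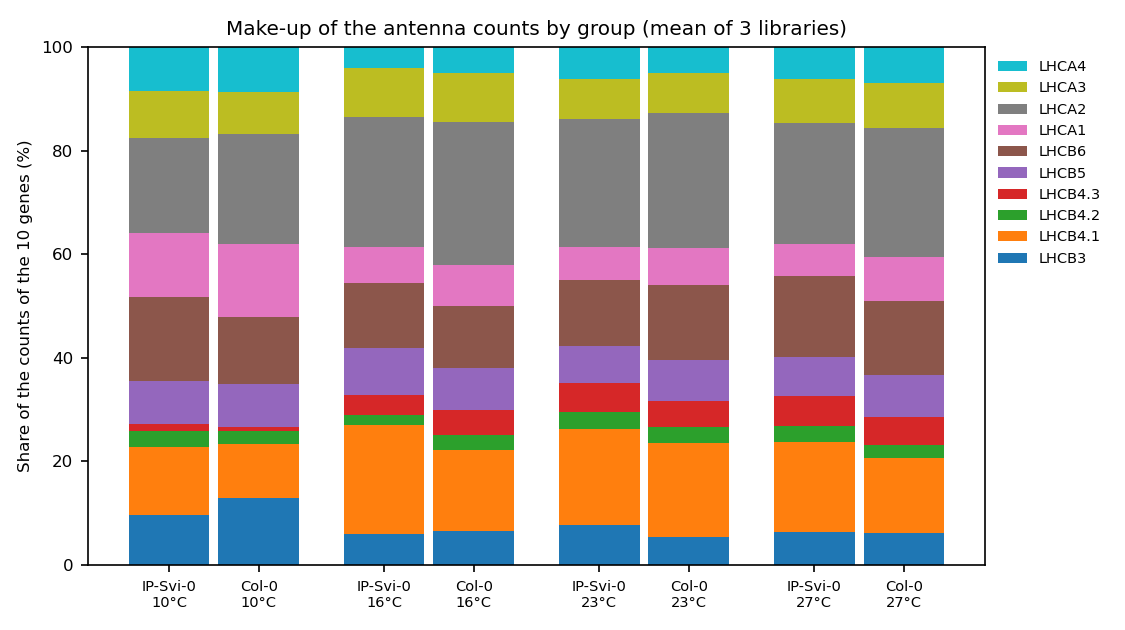
Share of each gene in the summed counts of the 10 antenna genes (vertical axis, %), as the mean of 3 libraries for each group, IP-Svi-0 on the left of Col-0 at each temperature. LHCA2 holds 18.3 to 27.5% in every group, LHCA1 and LHCB3 hold more at 10 °C than at the other temperatures in both accessions, and LHCB4.3 holds 1.34% in IP-Svi-0, against 0.795% in Col-0 at 10 °C.

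Within CP29, LHCB4.3 took a smaller part at 10 °C in both accessions. The ratio of LHCB4.3 to LHCB4.1 plus LHCB4.2 counts was 0.0818 ± 0.0189 at 10 °C, 0.169 ± 0.02 at 16 °C, 0.27 ± 0.111 at 23 °C and 0.283 ± 0.0341 at 27 °C in IP-Svi-0. In Col-0 it was 0.0636 ± 0.0384 at 10 °C, 0.259 ± 0.099 at 16 °C, 0.231 ± 0.0108 at 23 °C and 0.32 ± 0.0352 at 27 °C. The 10 °C libraries of the accessions overlapped, with 0.0633 to 0.101 in IP-Svi-0, against 0.039 to 0.108 in Col-0. In IP-Svi-0 the lower ratio went with higher LHCB4.1 and LHCB4.2, and in Col-0 with lower LHCB4.3. Over the 24 libraries the log2 CPM of LHCB4.3 had a correlation of -0.471 (with LHCB3) to -0.101 (with LHCB4.1) with the other 9 genes. The correlation with the mean profile of the 10 genes was -0.215 for LHCB4.3 and 0.917 to 0.985 for the others. Each gene is itself part of that mean, which raises these values. These points share 8 groups and the same libraries and depths, so the values describe the groups as much as the genes.

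Outside the 10, the genes whose log2 CPM followed their mean profile most closely over the 24 libraries were PSAO (r = 0.97), PSAE-1 (0.957), LHB1B2 (0.954), PSBW (0.946) and PSAL (0.944). PSAO, PSAE-1 and PSAL are subunits of the photosystem I core, LHB1B2 is an LHCB1 gene of the major antenna and PSBW is a small photosystem II subunit. PSAO had 1490 CPM on average in IP-Svi-0 at 10 °C and 366 to 500 in IP-Svi-0 at the other temperatures, against 751 in Col-0 at 10 °C and 389 to 451 in Col-0 at the others. LHB1B2 shares 1144 bp of exon with AT2G08665 and AT2G34410 on the other strand, and PSAE-1 272 bp with AT4G28740 and AT4G28755, so their counts are uncertain.

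The major antenna and the photosystem I core moved with these genes at 10 °C. All 8 major LHCII genes rose against 23 °C in both accessions, with median log2 ratios of 4.25 in IP-Svi-0, against 3.44 in Col-0. Of all genes tested, 5.77% rose in IP-Svi-0, against 3.83% in Col-0. LHCB2.2, an LHCB2 gene, rose by 4.51 in IP-Svi-0 (SE 0.39, adjusted p = 2.68e-10) and by 3.18 in Col-0 (SE 0.33, adjusted p = 1.08e-08). LHB1B2 rose by 3.66 in IP-Svi-0 (SE 0.31, adjusted p = 2.68e-10) and LHCB2.3, which shares 595 bp with AT3G27700, by 3.69 in Col-0 (SE 0.33, adjusted p = 1.82e-10). Counts of the near-identical LHCB1 and LHCB2 genes may be divided between copies. Of 12 nuclear photosystem I core genes, 12 rose in IP-Svi-0, against 2 in Col-0, with medians of 1.48 and 0.59. PSAN, which faces the lumen and shares 39 bp with AT5G64030, rose by 1.80 in IP-Svi-0 (SE 0.26, adjusted p = 3.79e-06) and by 0.81 in Col-0 (SE 0.25, adjusted p = 0.0402), and PSAL, part of the site where LHCII docks, by 1.94 in IP-Svi-0 (SE 0.29, adjusted p = 7.1e-06). PSAE-2, which shares 63 bp with AT2G20270, rose by 0.80 in Col-0 (SE 0.25, adjusted p = 0.0461).

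Further lists held relatives of the antenna proteins and genes that place, modify or regulate them. Their counts stand beside 5.77% of all genes that rose and 9.98% that fell in IP-Svi-0, and 3.83% and 2.85% in Col-0. Of 7 rare and stress-related members of the antenna family with enough counts, 4 rose in IP-Svi-0, while Col-0 had 2 that rose and 1 that fell. ELIP1 and ELIP2, early light-induced proteins, rose by 3.02 and 2.82 in IP-Svi-0 (adjusted p = 1.88e-06 and 0.000108) and by 1.33 and 1.76 in Col-0 (adjusted p = 0.0326 and 0.0315), while Lhca6, a linker of photosystem I to the NDH complex, fell by 1.21 in Col-0 (SE 0.29, adjusted p = 0.00573). Of 5 import and insertion genes 0 were called in either accession. Of 3 phosphorylation genes 1 fell in IP-Svi-0, the kinase STN8 (-1.18, SE 0.30, adjusted p = 0.00563), which shares 148 bp with AT5G01930, and 0 were called in Col-0. Of 4 regulators 1 rose in IP-Svi-0, GPRI1, the transcription factor GLK1 (1.26, SE 0.28, adjusted p = 0.00154), and 0 were called in Col-0, where GPRI1 was at -0.07 (adjusted p = 0.934). Of 3 chlorophyll b genes with enough counts 1 rose in each accession, CH1, which makes chlorophyll b and shares 36 bp with AT1G44414, by 1.99 in IP-Svi-0 (SE 0.34, adjusted p = 7.98e-05) and by 1.55 in Col-0 (SE 0.36, adjusted p = 0.00469).

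**Figure D5:**
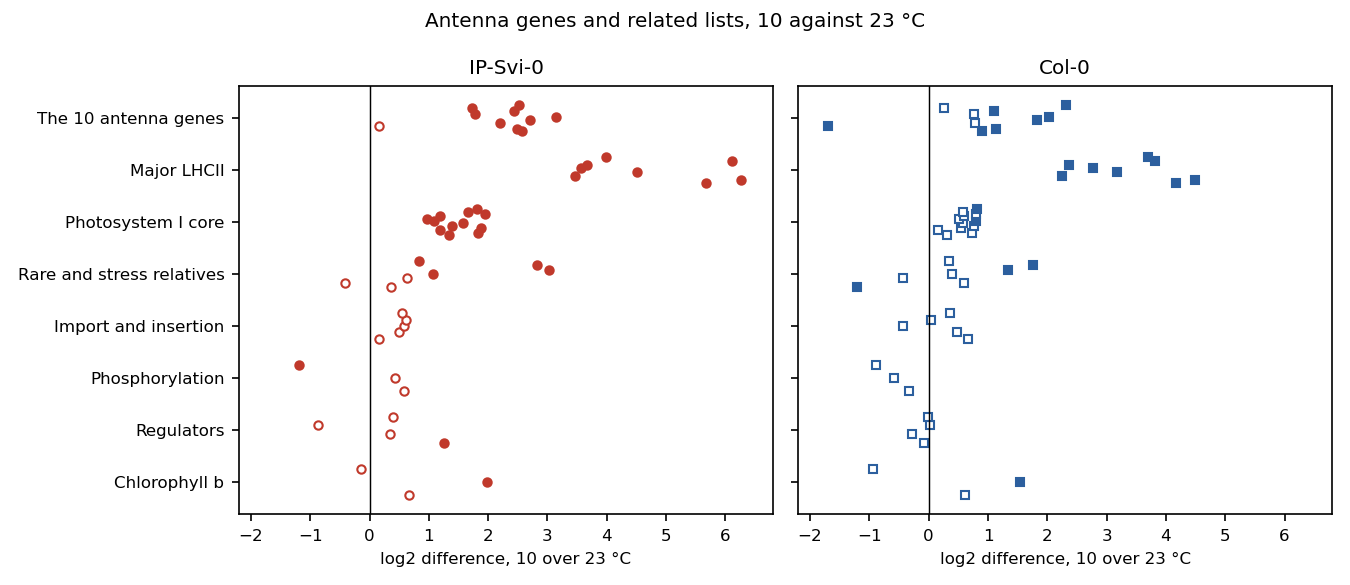
Log2 ratio between 10 and 23 °C (horizontal axis) of each gene of the antenna set and of the related lists (rows), IP-Svi-0 on the left and Col-0 on the right; filled symbols have an adjusted p under 0.05. The highest values in both accessions belong to major LHCII genes, and the 12 photosystem I core genes are all filled in IP-Svi-0 while 2 are filled in Col-0.

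Between the accessions at 10 °C the counts of the related lists stand beside 9.59% of all genes higher in IP-Svi-0 and 14.4% lower. Of 8 major LHCII genes 1 was higher in IP-Svi-0, LHB1B2 (log2 ratio 0.998, SE 0.28, adjusted p = 0.00862). The median was 0.28 for these 8 genes, 0.94 for the 10 antenna genes and 0.02 over all genes tested. Of 12 photosystem I core genes 5 were higher, among them PSAF, which docks plastocyanin (1.59, SE 0.28, adjusted p = 4.35e-05), and PSAG (1.02, SE 0.26, adjusted p = 0.00328), which shares 479 bp with AT1G55673. Of 7 relatives 3 were higher and 1 lower, with NPQ4, the quenching protein PsbS, at 1.08 (SE 0.25, adjusted p = 0.0015), Lhca6 at 1.07 (SE 0.29, adjusted p = 0.00557) and OHP2, which shares 223 bp with AT1G06717 and AT1G33990, at -1.54 (SE 0.30, adjusted p = 0.000202).

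Of the other lists at 10 °C, 3 of 5 import genes were higher in IP-Svi-0, among them CPFTSY, the receptor of the chloroplast signal recognition particle (1.18, adjusted p = 0.00773), and CAO, here the symbol of its subunit cpSRP43 (AT2G47450; 0.83, adjusted p = 0.0145). Of 3 phosphorylation genes 2 were higher, the phosphatase TAP38 (1.21, adjusted p = 0.00773), which shares 197 bp with AT4G27790, and the kinase STN7 (0.86, adjusted p = 0.0313). Of 4 regulators 2 were higher, GPRI1 (1.25, adjusted p = 0.00119) and GUN1, a plastid signalling protein (1.04, adjusted p = 0.00459). Of 3 chlorophyll b genes 1 was higher, NYC1, which starts chlorophyll b breakdown (1.24, adjusted p = 0.00353). The difference of responses to 10 °C was called for 0 of 8 major LHCII genes, where 6 of the 8 had values above 1 and adjusted p of 0.0509 to 0.326. It was positive and called for 1 of 12 photosystem I core genes (PSAF, 1.35, adjusted p = 0.037), 1 of 7 relatives (Lhca6, 1.57, adjusted p = 0.0192) and 1 of 4 regulators (GPRI1, 1.33, adjusted p = 0.0455). Among all genes tested it was positive and called in 1.43%. For Lhca6 it goes with the fall in Col-0 given above.

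Leaf markers and a property of the libraries moved with the difference at 10 °C. The 6 leaf mesophyll markers, genes of Rubisco, its activase and GAPA, summed to 30800 to 40900 CPM in IP-Svi-0 at 10 °C and 10700 to 12900 CPM in Col-0 at 10 °C, and 6 of 6 were higher in IP-Svi-0. At 23 °C they summed to 20500 to 27300 CPM in IP-Svi-0, against 20300 to 22000 CPM in Col-0. Within Col-0, 3 of the 6 fell at 10 °C and 0 rose, while 6 antenna genes rose. In IP-Svi-0 2 of the 6 rose and 0 fell. The 9 root markers summed to 574 to 645 CPM in IP-Svi-0, against 542 to 578 CPM in Col-0 at 10 °C, and to 805 to 896 CPM and 900 to 1100 CPM at 23 °C, with none at 0 in these 4 groups. The 10 seed storage markers summed to 25.2 to 147 CPM in IP-Svi-0, against 105 to 250 CPM in Col-0 at 10 °C, and to 315 to 821 CPM and 39.9 to 977 CPM at 23 °C. Of these, CRU2, AT1G03890 and SESA4 were at 0 in IP-Svi-0 at 10 °C, AT1G03890, SESA3 and SESA4 in IP-Svi-0 at 23 °C, and AT1G03890 in Col-0 at both temperatures. Between the accessions at 10 °C 1 of 5 tested root markers was higher in IP-Svi-0, and 2 of 5 tested seed markers were lower, where 9.59% of all genes were higher and 14.4% lower. At 10 against 23 °C 1 root marker rose and 3 seed markers fell in IP-Svi-0, where 5.77% of all genes rose and 9.98% fell. In Col-0 1 root and 1 seed marker fell, where 2.85% of all genes fell. The part of these cell types in the antenna differences was not tested.

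Genes that no gene on the other strand overlaps held a share of the nuclear counts of 48.6 ± 4.69% in IP-Svi-0, against 39.1 ± 4.35% in Col-0 at 10 °C. At 23 °C the share was 43.2 ± 1.48% in IP-Svi-0, against 45.4 ± 3.23% in Col-0. With this share as a covariate, 5 of 10 antenna genes were higher in IP-Svi-0 at 10 °C, since LHCB5 (log2 ratio 0.46, adjusted p = 0.225) and LHCA4 (0.45, adjusted p = 0.191) were lost. Of all 10097 genes tested, 477 were then higher and 577 lower, against 968 and 1454 without the covariate. The response to 10 °C then differed for 2 of 10 genes, LHCB4.3 and LHCB6, where the called difference was positive in 27 of all genes and negative in 7. The share of reads aligned to more than 1 place, a covariate chosen after the data were seen, also left these 2, where 25 of all genes were positive and 61 negative. With it the other 4 differences were 1.41 for LHCB5, 1.35 for LHCB4.1, 1.28 for LHCA3 and 1.15 for LHCB4.2, with adjusted p of 0.0794 to 0.115. With the covariate of counts without an overlap they were 0.84 for LHCB5, 1.11 for LHCB4.1, 0.99 for LHCA3 and 1.20 for LHCB4.2, with adjusted p of 0.0962 to 0.372.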

How the data were processed

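RNA of whole seedlings was sequenced in 24 libraries, 3 for each accession and temperature. The authors deposited raw counts per gene, and per the submitters' processing notes FastQC, HISAT2, Cufflinks, Cuffdiff, HTSeq and the build TAIR10 were used, with no versions given; which tool made each value, and the strand setting, are not given in the sources used here. Lines of unassigned reads, 96.4 to 98.6% of each library's total, were left out. Sequences and coordinates come from RefSeq on TAIR10.1.

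Genes were filtered with filterByExpr in edgeR 4.0.16 (minimum count 10), scaled by TMM and tested with the quasi-likelihood test in a model of 8 group means (R 4.3.3). A gene was called at a Benjamini-Hochberg adjusted p under 0.05 over 10097 genes. Alternatives were DESeq2 1.42.0 and its size factors, no filter, a replicate block, the 2 groups alone, 2 covariates, and each library left out. The covariates were the share of counts at genes without an overlap and, added after the data were seen, the share of reads aligned to more than 1 place. The scripts were tested on simulated data. Summed counts at the 10 genes, 751 to 14000 per library, limit precision.

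Other genes were named as up to 2 called per list, direction and comparison, those of the smallest adjusted p, and as the 5 genes most correlated with the mean profile. The members and lists were chosen with earlier results of these data known.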

Additional observations from a re-analysis of the deposited data

Results flagged for a closer look

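The response to 10 °C against 23 °C differed between IP-Svi-0 and Col-0 in 6 of the 10 antenna genes by the test of the difference itself (edgeR quasi-likelihood test), where 5.45% of all genes differed. The difference of responses on the log2 scale was 1.86 for LHCB4.3 (adjusted p = 0.00673), 1.68 for LHCB6 (adjusted p = 0.00901), 1.46 for LHCB4.1 (adjusted p = 0.0204), 1.43 for LHCB4.2 (adjusted p = 0.0189), 1.34 for LHCA3 (adjusted p = 0.0295) and 1.32 for LHCB5 (adjusted p = 0.0369). With 3 libraries a group, single outlying libraries were not looked for, but with 1 library left out the count of 6 ranged from 2 to 7. It was 2 with either covariate and 9 with DESeq2, whose count over all genes for this difference is not given here.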

How the results depend on the processing

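Depth and the spread between 3 libraries limit these results; LHCB4.3 in Col-0 at 10 °C rests on 70 counts. The replicate numbers did not pair the samples (7 of 24 libraries correlated best with their own number), and with the replicate block 120 of 120 results of single genes kept their call and direction; the genes called at 27 against 23 °C in IP-Svi-0 were 3 with the block and 0 without it. The cause of the changes below was not tested.

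For genes called over the whole table, the covariate of counts without overlap gave 1054 between accessions at 10 °C (2422 without it), 49 for IP-Svi-0 at 16 °C (80), 14 for IP-Svi-0 at 27 °C (0), 34 for Col-0 at 27 °C (11), 34 for the difference in response to 10 °C (550) and 43 over 4 temperatures (144). The covariate of multiple alignment gave 336 between accessions at 16 °C (830), 6 for Col-0 at 16 °C (124), 86 for the difference in response to 10 °C and 24 over 4 temperatures. The 2 groups alone gave 440 between accessions at 16 °C, 35 and 26 for IP-Svi-0 at 16 and 27 °C and 38 for Col-0 at 27 °C. No filter gave 134 and 18 for IP-Svi-0 at 16 and 27 °C, 225 and 37 for Col-0 at 16 and 27 °C and 391 over 4 temperatures. DESeq2 gave 12 for IP-Svi-0 and 7 for Col-0 at 27 °C and 349 over 4 temperatures, and its size factors 1 for IP-Svi-0 at 27 °C.

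Antenna genes called became 1 between accessions at 16 °C and 2 for IP-Svi-0 at 16 °C with DESeq2, 1 between accessions at 27 °C with the overlap covariate, 2 for the difference in response to 10 °C with either covariate, and 9 with DESeq2 and 1 with either covariate over 4 temperatures. With DESeq2 the difference in response to 10 °C was called for 9 antenna genes. The DESeq2 counts over all genes are not given here for this difference or for the 2 comparisons at 16 °C.

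With 1 library left out, genes called ranged over 1617 to 2473, 520 to 998, 601 to 738 and 637 to 772 between accessions at 10, 16, 23 and 27 °C and 2989 to 3590 in their mean. They ranged over 843 to 1734, 24 to 129 and 0 to 0 for IP-Svi-0 at 10, 16 and 27 °C against 23 °C, 352 to 829, 52 to 124 and 5 to 13 for Col-0, 88 to 897 for the difference in response to 10 °C and 36 to 383 over 4 temperatures. At 10 against 23 °C the genes called were 843, 1003 and 1035 without IP-Svi-0 10 °C replicate 2, 10 °C replicate 1 and 23 °C replicate 3 (1591 with all), and 398, 352 and 403 without Col-0 10 °C replicate 2, 10 °C replicate 3 and 23 °C replicate 1 (675 with all). The count for the difference in response to 10 °C moved by over 1.5 times when any library at 10 or 23 °C other than Col-0 23 °C replicate 3 was left out. Antenna genes called ranged over 5 to 8 between accessions at 10 °C, 0 to 1 at 16 °C, 2 to 2 in the mean, 9 to 9 for IP-Svi-0 and 6 to 8 for Col-0 at 10 against 23 °C, 2 to 7 for the difference in response to 10 °C and 0 to 7 over 4 temperatures, and were 0 elsewhere.

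Directions turned only for log2 differences that were not called. With the overlap covariate LHCA4 between accessions was -0.184 at 16 °C, 0.017 at 23 °C and -0.016 in the mean, IP-Svi-0 had LHCB4.3 at 0.041 at 16 °C and LHCB4.1 at -0.108, LHCA1 at -0.043 and LHCA2 at -0.013 at 27 °C, and Col-0 had LHCB5 at 0.009 and LHCA1 at 0.052 at 16 °C. With the multiple-alignment covariate IP-Svi-0 had LHCB4.1 at -0.017 and LHCB4.2 at -0.004 at 27 °C, and Col-0 had LHCB3 at -0.118, LHCB4.2 at 0.275 and LHCA2 at 0.057 at 16 °C. No filter gave 0.031 for LHCB6 between accessions at 27 °C and 0.009 for LHCB4.3 in IP-Svi-0 at 16 °C. The 2 groups alone gave 0.037 for LHCB4.3 and 0.014 for LHCA4 in IP-Svi-0 at 16 °C, and LHCA1 in Col-0 at 16 °C was 0.004 with DESeq2 and 0 with its size factors.

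Leaving out 1 library, accession differences turned at 16 °C for LHCB3 (-0.007 to 0.464), LHCB4.3 (-0.038 to 0.257), LHCA1 (-0.061 to 0.521) and LHCA4 (-0.091 to 0.329), at 27 °C for LHCB3 (-0.228 to 0.057), LHCB4.3 (-0.117 to 0.062) and LHCB6 (-0.1 to 0.106), and in the mean for LHCA1 (-0.117 to 0.021). Those of IP-Svi-0 turned at 16 °C for LHCB3 (-0.096 to 0.37), LHCB4.3 (-0.157 to 0.051) and LHCA4 (-0.192 to 0.039), and at 27 °C for LHCB4.1 (-0.172 to 0.257), LHCB4.2 (-0.052 to 0.289), LHCA1 (-0.141 to 0.276), LHCA2 (-0.12 to 0.229) and LHCA4 (-0.003 to 0.439). Those of Col-0 turned at 16 °C for LHCB3 (-0.034 to 0.301), LHCB5 (-0.521 to 0.033), LHCA1 (-0.373 to 0.194), LHCA2 (-0.292 to 0.027) and LHCA3 (-0.144 to 0.318), and at 27 °C for LHCB3 (-0.001 to 0.286), LHCB4.3 (-0.02 to 0.159), LHCB5 (-0.14 to 0.119) and LHCB6 (-0.189 to 0.051).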
